A study of Mus musculus with 11 samples.

Results

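The cyclins, cell cycle kinases, their inhibitors and the E2F and retinoblastoma family genes were examined at their promoters, where reads from chromatin immunoprecipitation (ChIP) of ST18 were set against reads from input DNA. They were chosen by gene symbol from a list of 40 genes, and all 40 had a row among the 21881 promoter windows of the deposited table, each 1000 bp wide. ST18 belongs to the MYT1 family of zinc finger proteins, and the title of the study describes it as a transcriptional repressor in early cortical development. The ChIP libraries, 2 by the labels, were made in vitro with an antibody to the HA tag from brain cells that the labels call TN, and the 1 input library is genomic DNA of the same TN cells. What drove the tagged protein, and at which level, was not stated in any source used here. The series also holds 4 RNA samples of ST18 knockdown (shSt18) and 4 of non-targeting control (NTC) from GFP-sorted cells of mouse embryonic brains, electroporated before birth and collected at embryonic day 16.5, which were not analysed here. The promoter table has 1 ST18 column and 1 input column, so no value below has a replicate check, and all errors are counting errors. ChIP reads do not measure expression, so the label of the cells could not be checked against marker genes.

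A cell passes through the division cycle when cyclins bind and activate cyclin-dependent kinases (CDKs) in turn. D cyclins with Cdk4 and Cdk6 phosphorylate the retinoblastoma protein in G1 and so release the activator E2F factors, E and A cyclins with Cdk2 drive DNA replication, and B cyclins with Cdk1 drive mitosis. CDK inhibitors of the Cip/Kip and INK4 families, the pocket proteins (the retinoblastoma protein and its relatives) and the repressor E2Fs hold these steps back. In the developing cortex, progenitors that leave the cycle become neurons, and Cdkn1b and Cdkn1c, which encode p27 and p57, are known for their part in that exit. The 40 genes were therefore divided by role into 13 exit genes, 5 G1 entry genes, 10 S entry genes and 12 mitosis genes.

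The cell cycle promoters carried ST18 reads in nearly the same proportion to input as promoters at large. Their windows held 868 ST18 reads against 317 input reads in all, a ratio 1.0-fold that of all other windows (exact 95% interval 0.879 to 1.14). The 39 windows with reads held a total of 14 to 46 reads each, and their fold, the ST18 to input ratio of a window divided by that of all promoters, ranged from 0.418 for Ccnb1 to 3.84 for E2f2. The median deposited log2 enrichment was 0.03 over the 40 genes, against 0.04 over all windows, and 0.03 and 0.05 over windows with reads only. Ranked among all windows by deposited log2 enrichment, 3 members lay above the 90th percentile (Ccnb2, Cdkn2a and E2f2) and 5 between the 75th and the 90th (Ccnd3, Cdk2, Cdk6, E2f4 and Rb1), while 2 lay below the 10th (Ccnb1 and Plk1) and 3 between the 10th and the 25th (Bub1b, Cdc25b and Cdk1).

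No member was called by an exact two-sided binomial test of its reads against the ratio of all promoters, adjusted over all 21881 windows at 0.05. That test compares the reads of these libraries and not conditions. It called 0.0366% of all windows as higher in ST18 reads and 0.00914% as lower. At an unadjusted exact p under 0.05, 1 member of 40 passed, Ccnb1, against 6.88% of all windows. The exact 95% interval of the fold lay above 1 for 0 of 39 members, against 2.43% of all windows with reads, and below 1 for 1 of 39, again Ccnb1, against 3.32%. No member reached a deposited log2 enrichment of 0.58 (1.15% of all windows did) or lay at or below −0.58 (0.219%). No share of the members was above that of all windows by these rules. Under some other settings, given below, a share of the members was above that of all windows.

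**Figure D1:**
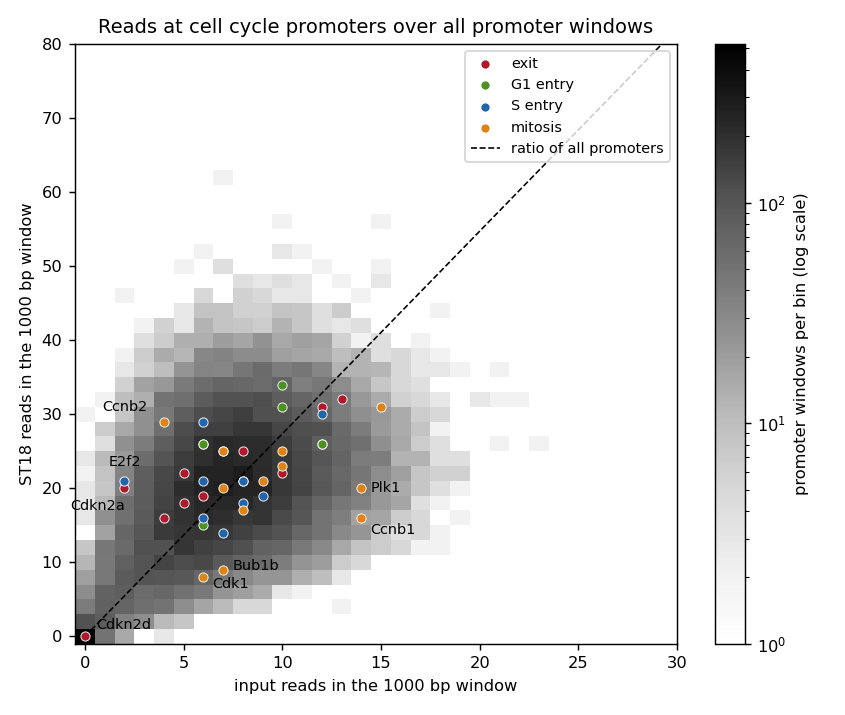
Reads in the 1000 bp promoter window of each cell cycle gene, with input reads on the horizontal axis and ST18 reads on the vertical axis; points are coloured by class, grey bins show how many of all promoter windows lie there (log scale), and the dashed line is the ratio of all promoters. Most points lie within the dark centre of all windows, with Ccnb1 (16 ST18 and 14 input reads) below the line and E2f2 (21 and 2), Cdkn2a (20 and 2) and Ccnb2 (29 and 4) above it; genes with equal counts share a point.

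Among the exit genes, Cdkn2a, which encodes the INK4 inhibitor p16 and the p53 regulator Arf, stood highest. Its window held 20 ST18 reads against 2 input reads, a deposited log2 enrichment of 0.42 and a fold of 3.66 (exact 95% interval 0.888 to 32.3). The few input reads leave the upper bound almost without limit, and the interval includes 1. RefSeq lists 2 starts for Cdkn2a, and which of them was counted was not tested. The value therefore stands for the gene and not for p16 or Arf alone. E2f4, the main repressor E2F of resting cells, followed with 22 ST18 against 5 input reads (log2 0.25, fold 1.61, interval 0.594 to 5.44), and Rb1, the retinoblastoma gene, with 26 against 6 (log2 0.27, fold 1.58, interval 0.638 to 4.71). The other pocket protein genes were Rbl1 (p107), with 16 ST18 and 4 input reads, and Rbl2 (p130), with 21 and 8. E2f5 held 18 and 5, and E2f6, a repressor that does not bind pocket proteins, 19 and 6. All 3 repressor E2Fs thus lay above the ratio of all promoters, as did Rb1 and Rbl1, but none beyond counting error.

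The Cip/Kip genes lay near the ratio of all promoters. Cdkn1c (p57) held 25 ST18 and 8 input reads (log2 0.12, fold 1.14, interval 0.499 to 2.93), and Cdkn1a (p21), an inhibitor induced by p53, held 31 and 12 (log2 0.03). The lowest exit genes were Cdkn2b (p15), with 26 ST18 against 12 input reads (log2 −0.08, fold 0.792, interval 0.386 to 1.72), Cdkn1b (p27), with 22 against 10 (log2 −0.06, fold 0.804, interval 0.365 to 1.90), and Cdkn2c (p18), with 32 against 13 (log2 0.00, fold 0.900, interval 0.459 to 1.87). Cdkn2a and Cdkn2b lie side by side in the genome, yet stood at opposite ends of this class; the ratio of the one was 4.62 times that of the other, with an exact interval of 0.85 to 46.1 that includes 1.

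The starts of these neighbours are shown because they are the extremes of the exit class. The sequences are RefSeq promoters of build GRCm38.p6, from 250 bases before to 50 bases after the gene's start, at chr4:89294570-89294869 for the more upstream of the 2 starts listed for Cdkn2a and chr4:89310983-89311282 for Cdkn2b, both on the minus strand. The position of the counted windows around the start is not given in the sources used here and the files use build mm9, so these bases need not be those that were counted. Capitals here and below mark matches, on either strand, to the motifs named further on (MYT family, E2F, CHR, CCAAT and Sp1). The Cdkn2a stretch has 1 E2F and 3 Sp1 matches and 77.0% G and C, whereas that of Cdkn2b has 1 CHR and 1 Sp1 match and 57.7% G and C.
Cdkn2a: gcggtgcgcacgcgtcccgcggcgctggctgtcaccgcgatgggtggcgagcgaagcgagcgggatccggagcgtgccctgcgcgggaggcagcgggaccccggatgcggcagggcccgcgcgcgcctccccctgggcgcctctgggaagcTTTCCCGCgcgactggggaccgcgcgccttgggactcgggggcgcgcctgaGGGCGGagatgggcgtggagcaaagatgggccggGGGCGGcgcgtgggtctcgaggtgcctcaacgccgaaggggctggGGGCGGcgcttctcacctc
Cdkn2b: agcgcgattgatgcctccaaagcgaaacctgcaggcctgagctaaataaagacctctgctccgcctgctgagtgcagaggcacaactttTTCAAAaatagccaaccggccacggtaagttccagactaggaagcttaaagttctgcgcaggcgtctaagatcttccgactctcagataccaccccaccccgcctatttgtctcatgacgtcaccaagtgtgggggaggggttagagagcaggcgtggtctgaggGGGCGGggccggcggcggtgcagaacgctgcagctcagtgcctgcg

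Cdkn2d, which encodes the INK4 inhibitor p19 and is the remaining exit gene, held 0 reads in both columns, so it has no fold and its deposited log2 enrichment of 0 is no measurement. In all, 523 windows (2.39%) had no reads. The row of Cdkn2d stands between Cxcr6 and Ccr3 in the deposited table, which otherwise follows genome order: for the other 39 members, at least 1 of the 3 rows on either side belongs to a gene within 10 places of the member in RefSeq, and for Cdkn2d none does. Its RefSeq neighbours Kri1 and Ap1m2 differed, with no reads in either column for Kri1 and with 18 ST18 and 14 input reads for Ap1m2. The row of Kri1, unlike that of Cdkn2d, stands in genome order, between S1pr5 and Ap1m2. Whether the counted window of Cdkn2d lay at that gene was not tested.

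The folds of the 5 G1 entry genes ran from 0.792 to 1.58, and the interval of each included 1. Cdk6, a partner kinase of the D cyclins, was highest with 26 ST18 against 6 input reads (log2 0.27, fold 1.58, interval 0.638 to 4.71). Ccnd3 held 34 against 10 (log2 0.20, fold 1.24, interval 0.600 to 2.82), and Cdk4, the other partner kinase, 31 against 10 (log2 0.14, fold 1.13, interval 0.541 to 2.59). Below the ratio of all promoters stood Ccnd1, with 15 ST18 against 6 input reads (log2 0.01, fold 0.914, interval 0.335 to 2.87), and Ccnd2, the D cyclin known from radial glia, with 26 against 12 (log2 −0.08, fold 0.792, interval 0.386 to 1.72). The D cyclins could not be told from each other at this depth: Ccnd3 over Ccnd2 gave 1.57 (exact interval 0.53 to 4.74). The start of Cdk6, the highest of the class, at chr5:3343643-3343942 on the plus strand, is shown for that place; it holds none of the motifs searched. For Ccnd2, the lowest, no sequence is printed.
Cdk6: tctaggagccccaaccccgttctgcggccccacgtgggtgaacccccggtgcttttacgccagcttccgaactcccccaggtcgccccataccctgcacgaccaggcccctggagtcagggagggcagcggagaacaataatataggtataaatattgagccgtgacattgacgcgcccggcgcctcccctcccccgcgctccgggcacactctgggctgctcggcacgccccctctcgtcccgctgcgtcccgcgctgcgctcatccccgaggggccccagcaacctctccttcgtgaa

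Of the S entry genes, E2f2 had the highest fold of all 40 genes. E2f2 encodes an activator E2F, and its window held 21 ST18 against 2 input reads (log2 0.45, fold 3.84, interval 0.938 to 33.8; exact binomial test, adjusted p = 0.737). Cdk2, the kinase bound by E and A cyclins, held 29 against 6 (log2 0.34, fold 1.77, interval 0.721 to 5.2), and E2f1 held 25 against 7 (log2 0.18, fold 1.31, interval 0.549 to 3.57). The third activator, E2f3, stood on the other side with 19 ST18 against 9 input reads (log2 −0.08, fold 0.772, interval 0.333 to 1.94). The activator E2Fs thus spread over much of the range of the class, and the widest pair, E2f2 over E2f3, gave 4.97 with an interval of 0.85 to 51.5.

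Of the cyclins of S entry, 3 had a fold under 1 and Ccne2 a fold over 1. Ccne1 was the lowest of the class with 14 ST18 against 7 input reads (log2 −0.09, fold 0.731, interval 0.276 to 2.14), while its paralog Ccne2 held 21 against 6 (log2 0.16, fold 1.28, interval 0.499 to 3.87). Ccna2, the A cyclin of somatic cells, held 18 against 8 (log2 −0.04, fold 0.822, interval 0.340 to 2.19), and Ccna1, the A cyclin of the germ line, 30 against 12 (log2 0.01). Cdc25a, a phosphatase that activates CDKs, held 16 ST18 and 6 input reads, and Cdc6, which helps to load the replicative helicase, 21 and 8, both at 0.03 on the deposited log2 scale. The starts of the extremes of the class follow, that of E2f2 at chr4:136172024-136172323 on the plus strand (the more upstream of 2 listed) and that of Ccne1 at chr7:38107441-38107740 on the minus strand. E2f2 has 1 CCAAT and 1 E2F match, and Ccne1 has 4 Sp1 matches.
E2f2: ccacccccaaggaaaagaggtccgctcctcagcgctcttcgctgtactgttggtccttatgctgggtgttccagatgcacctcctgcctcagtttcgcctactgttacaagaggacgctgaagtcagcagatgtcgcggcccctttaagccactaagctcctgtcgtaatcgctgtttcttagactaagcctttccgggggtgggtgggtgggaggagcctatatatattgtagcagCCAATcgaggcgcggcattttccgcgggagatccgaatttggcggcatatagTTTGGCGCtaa
Ccne1: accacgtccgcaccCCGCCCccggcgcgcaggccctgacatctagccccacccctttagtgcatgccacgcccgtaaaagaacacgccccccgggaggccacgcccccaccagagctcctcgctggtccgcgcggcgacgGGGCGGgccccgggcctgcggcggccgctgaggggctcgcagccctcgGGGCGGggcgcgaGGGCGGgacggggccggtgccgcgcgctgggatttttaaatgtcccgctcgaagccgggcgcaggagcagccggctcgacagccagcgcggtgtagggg

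The mitosis genes held both the highest deposited log2 enrichment and the lowest folds of the list, and these 2 ends belong to paralogs. Ccnb2, a B cyclin, held 29 ST18 against 4 input reads, a log2 value of 0.47 and a fold of 2.65 (interval 0.931 to 10.4; exact binomial test, adjusted p = 0.771). Ccnb1, the main mitotic B cyclin, held 16 against 14, a log2 value of −0.42 and a fold of 0.418 (interval 0.191 to 0.924; exact binomial test, adjusted p = 0.588). The ratio of Ccnb2 was 6.34 times that of Ccnb1, with an exact interval of 1.59 to 30.1. Of 32 pairs of paralogs compared in 13 families, this was the only one whose interval excluded 1; the intervals are not adjusted for the number of pairs, and both genes were known from earlier results as the ends of the list, so the pair is a description.

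The starts of the B cyclin genes are shown side by side for that reason, Ccnb2 at chr9:70421505-70421804 and Ccnb1 at chr13:100786437-100786736, both on the minus strand. Ccnb2 has 3 CCAAT matches, 2 matches to the CHR letters, 1 Sp1 match and 51.7% G and C. CCAAT and CHR elements together are a known arrangement of promoters active in late cycle. The CHR matches of Ccnb2 begin at −167, upstream of the CCAAT matches, and at 4, downstream of them. CHR letters stood in 19.4% of all promoters searched. Ccnb1 has 2 CCAAT matches, 3 Sp1 matches and no match to the CHR letters searched, and 66.3% G and C. Only TTTGAA and TTCGAA were searched as CHR letters, so an element with other letters would have been missed.
Ccnb2: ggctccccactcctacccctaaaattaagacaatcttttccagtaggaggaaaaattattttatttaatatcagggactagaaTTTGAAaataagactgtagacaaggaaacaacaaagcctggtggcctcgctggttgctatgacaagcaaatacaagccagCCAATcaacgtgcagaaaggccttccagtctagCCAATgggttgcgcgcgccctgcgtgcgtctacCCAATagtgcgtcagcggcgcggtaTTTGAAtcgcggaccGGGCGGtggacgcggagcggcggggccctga
Ccnb1: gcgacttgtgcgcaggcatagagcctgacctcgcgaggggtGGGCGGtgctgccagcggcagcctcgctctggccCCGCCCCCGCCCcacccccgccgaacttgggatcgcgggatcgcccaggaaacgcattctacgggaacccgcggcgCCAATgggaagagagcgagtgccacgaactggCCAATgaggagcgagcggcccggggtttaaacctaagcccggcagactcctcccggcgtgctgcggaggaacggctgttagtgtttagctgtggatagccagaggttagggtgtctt

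The remaining mitosis genes leaned to the low side. Next to Ccnb1 came Bub1b, which encodes the spindle checkpoint protein BubR1, with 9 ST18 against 7 input reads (log2 −0.23, fold 0.470, interval 0.156 to 1.48), and Cdk1, the mitotic kinase, with 8 against 6 (log2 −0.19, fold 0.487, interval 0.148 to 1.70). Plk1, the Polo-like kinase, held 20 against 14 (log2 −0.32, fold 0.522, interval 0.251 to 1.12). These 3 intervals include 1. On the high side, Wee1, the kinase that inhibits Cdk1, held 25 ST18 against 7 input reads (log2 0.18, fold 1.31, interval 0.549 to 3.57), and Aurkb, the kinase of the chromosomal passenger complex, 20 against 7 (log2 0.07, fold 1.04, interval 0.424 to 2.92).

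Between them lay the spindle pole kinase Aurka (25 ST18 and 10 input reads), the Cdk1-activating phosphatases Cdc25b (31 and 15) and Cdc25c (21 and 9), Cdc20, which activates the anaphase-promoting complex (23 and 10), and the checkpoint kinase Bub1 (17 and 8), with folds from 0.755 to 0.914. The start of Aurka is 433 bp from that of Cstf1 on the other strand in RefSeq, and the Cstf1 window held 27 ST18 and 11 input reads, so the windows may share reads. It was the only member with another gene's start within 1000 bp and a window of its own for that gene, among the 29 members found in the promoter table of RefSeq.

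**Figure D2:**
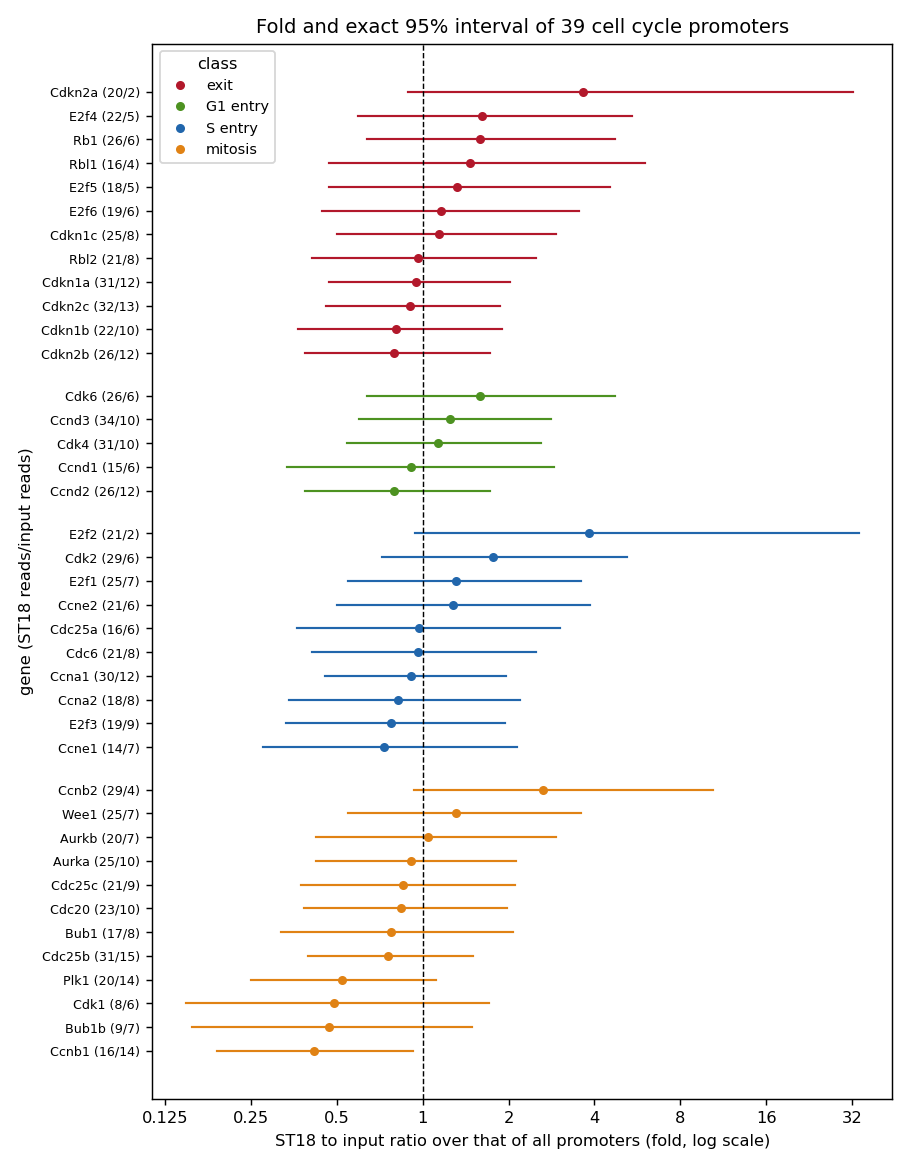
Fold of each of the 39 cell cycle promoters with reads, as the ST18 to input ratio over that of all promoters on a log axis, by class and from high to low within a class; dots are folds, lines are exact 95% intervals and the dashed line marks 1. All intervals include 1 except that of Ccnb1, at 0.418 (0.191 to 0.924).

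The exit genes were then set against the genes of the other classes, called cycling genes here. These include Wee1, an inhibitor of Cdk1, and the spindle checkpoint genes Bub1 and Bub1b. The 13 exit genes held 278 ST18 against 91 input reads in all, and the 27 G1 entry, S entry and mitosis genes together held 590 against 226. The exit ratio was 1.17 times that of the cycling genes, with an exact interval of 0.876 to 1.57, so no difference was detectable at this depth. Exit over G1 entry gave 1.02 (0.655 to 1.57), exit over S entry 1.01 (0.696 to 1.47) and exit over mitosis 1.39 (0.990 to 1.95). The largest of these ratios was that over the mitosis genes, and its interval includes 1 as well. By median deposited log2 enrichment the exit genes stood at 0.11 (0.12 without Cdkn2d, whose window had no reads), the G1 entry genes at 0.14, the S entry genes at 0.03 and the mitosis genes at −0.05.

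The mitosis genes held 244 ST18 against 111 input reads, and the 15 G1 entry and S entry genes 346 against 115. The mitosis ratio was 0.731 times that of the earlier phases (exact interval 0.531 to 1.01), and 0.803 times that of all other windows (0.639 to 1.01). Of the 12 mitosis genes, 9 had a fold under 1, against 5 of 12 exit genes with reads, 2 of 5 G1 entry genes, 6 of 10 S entry genes and 49.6% of all windows with reads. With the scaling factor of the deposited log2 enrichment these became 8 mitosis, 3 exit, 1 G1 entry and 3 S entry genes and 41.5% of all windows. The contrast kept its direction without Ccnb1, at 0.781 (0.562 to 1.09). With only windows of more than 5 input reads it became 0.699 (0.503 to 0.970), an interval that excludes 1; that filter takes out windows with few input reads, Ccnb2 and E2f2 among them. These intervals treat reads as independent and promoters as fixed, and genes within a class are not replicates. The classes were also chosen with earlier results of these data known, so the contrast is a description.

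**Figure D3:**
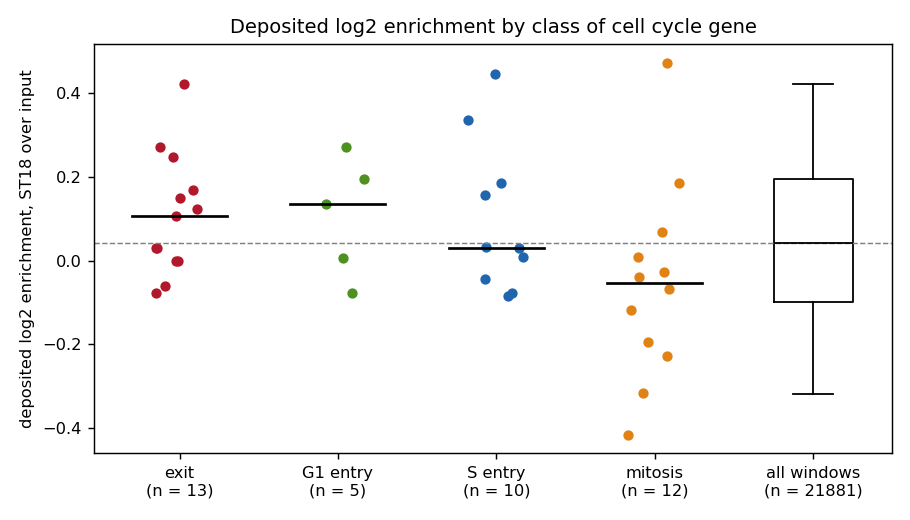
Deposited log2 enrichment of ST18 over input by class of cell cycle gene; each dot is 1 gene, black bars are class medians, the box shows the quartiles of all 21881 windows with whiskers at the 5th and 95th percentiles, and the dashed line is the median of all windows. The classes overlap throughout; class medians run from −0.05 for mitosis to 0.14 for G1 entry, against 0.04 for all windows, and Ccnb1 at −0.42 lies below the lower whisker at −0.32, while E2f2 at 0.45 and Ccnb2 at 0.47 lie above the upper whisker at 0.42; Cdkn2d, with no reads, is drawn at its deposited 0.

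By protein family the same picture held. The 7 CDK inhibitor genes held 156 ST18 against 57 input reads and the 9 cyclin genes 203 against 79, a ratio of 1.07 (exact interval 0.701 to 1.62), or 0.951 without Ccnb1. The summed fold over all promoters was 0.95 for the Cip/Kip inhibitors (interval 0.616 to 1.5) and 1.06 for the INK4 inhibitors (0.674 to 1.70). The E2F and pocket protein genes lay higher, with 1.35 for the repressor E2Fs (0.765 to 2.51), 1.32 for the activator E2Fs (0.773 to 2.36) and 1.28 for the pocket proteins (0.748 to 2.30). So did the cyclin-dependent kinases, at 1.23 (0.797 to 1.94), while the Aurora kinases stood at 0.968 (0.543 to 1.80). Among the cyclins, the D type stood at 0.979, the E type at 0.984, the A type at 0.877 and the B type at 0.914, and in the last this sum joins the high Ccnb2 with the low Ccnb1. The lowest families were the Bub proteins at 0.634 (0.323 to 1.29) and the Cdc25 phosphatases at 0.828 (0.532 to 1.32). The interval of each family included 1.

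**Figure D4:**
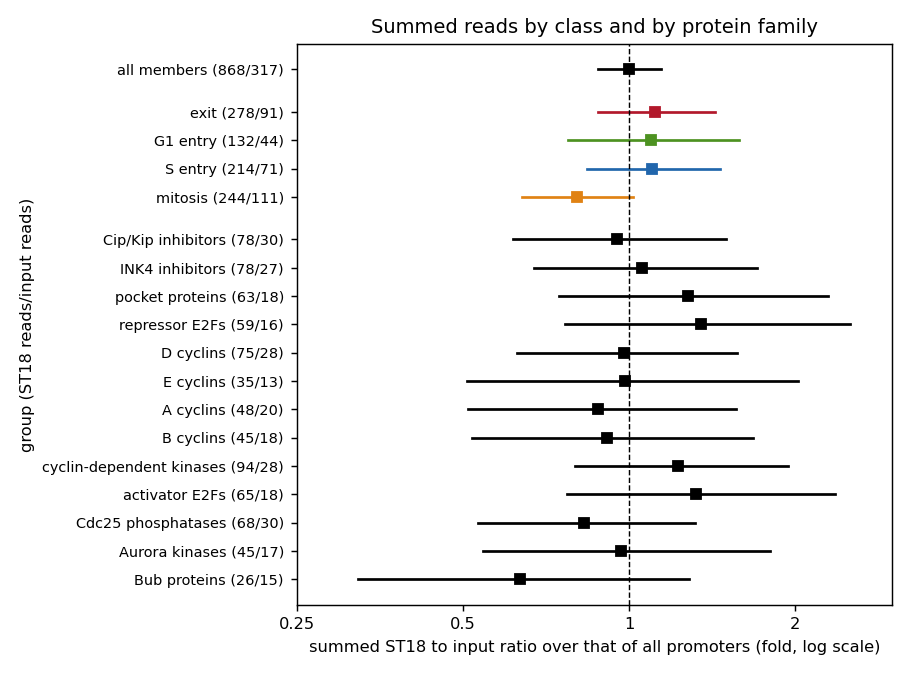
Summed ST18 to input ratio over that of all promoters, on a log axis, for all 40 genes, the 4 classes and 13 protein families; squares are folds, lines are exact 95% intervals and the dashed line marks 1. The 40 genes together lie at 1.0 and the mitosis class is the lowest of the classes at 0.803; all intervals include 1.

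Of the 40 genes, 29 matched a promoter sequence of RefSeq (GRCm38.p6), taking the first start listed for each. The motifs were searched on both strands of the 300 bases. E2F letters (TTTCCCGC, TTTGGCGC, TTTCGCGC or TTTGCCGC) were present in 8 of 29 members (27.6%), against 2.32% of all 27025 promoters, and the holders were Cdc25a, Cdc6, Cdk1, Cdk2, Cdkn2a, E2f2, E2f3 and Rbl1. CHR letters (TTTGAA or TTCGAA) were present in 11 (37.9% against 19.4%), among them 8 of the 9 mitosis genes searched, CCAAT in 16 (55.2% against 37.9%), among them all 9 mitosis genes searched, and the Sp1 letters GGGCGG in 22 (75.9% against 35.9%). The letters AAGTTT, a core bound by MYT family zinc fingers, were present in 2 members, Bub1b and Cdc25a (6.90% against 14.4%). The 27025 promoters include those without a counted window, and these shares were not adjusted for G and C content. A match is a description of the letters and not a bound site.

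Median deposited log2 enrichments were compared between members with and without each motif, with no test and over the 28 with reads. Members with CCAAT had a median of −0.06 and those without 0.11, and members with CHR letters had −0.08 and those without 0.11; the mitosis genes make up most of the holders of both. Members with E2F letters had 0.10 and those without 0.00, members with Sp1 letters had 0.00 and those without 0.03, and Bub1b and Cdc25a, with the MYT letters, had −0.10 and the 26 without 0.02. Over all windows with reads matched to a promoter, the medians were 0.04 with CCAAT and 0.05 without, 0.03 with CHR letters and 0.05 without, 0.08 with E2F letters and 0.05 without, 0.06 with Sp1 letters and 0.03 without, and 0.03 with MYT letters and 0.05 without. The member promoters had a median of 62.0% G and C (49.7% to 77.3%), against 57.3% for 14683 matched windows, and across the 28 with reads G and C content and log2 enrichment had a Spearman correlation of 0.14, and across all matched windows with reads one of 0.12. Genes share the same pair of libraries in these correlations and are not independent replicates.

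Further genes of the cycle were taken from a list of 87, all of which had a window with reads. Together they held 1964 ST18 and 735 input reads (0.977-fold that of all promoters, interval 0.897 to 1.06), with a median deposited log2 enrichment of 0.05, and none was called by the exact test. The interval lay above 1 for 2 of 87 (2.30%), Ccnf, which encodes the F-box cyclin, at 24 ST18 against 2 input reads (fold 4.39, 1.09 to 38.3), and Mybl2 (B-Myb), which acts with the MuvB complex on mitotic genes, at 37 against 5 (fold 2.70, 1.06 to 8.82). It lay below 1 for 2 of 87, Lin52, a subunit of that complex, at 10 against 14 (log2 −0.58, fold 0.261, 0.104 to 0.632; exact binomial test, adjusted p = 0.330) and the centrosomal kinase Nek2 at 19 against 15 (fold 0.463, 0.223 to 0.979). Both shares are again near the 2.43% and 3.32% of all windows with reads. By deposited log2 enrichment, 0 of 87 reached 0.58 and 1 of 87, Lin52, lay at or below −0.58. Of all windows, 1.15% and 0.219% did so. The low share is thus above that of all windows, but it rests on 1 gene.

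Of the others on this list, the highest folds were those of Cdk14 at 4.39 (12 ST18 against 1 input read, 0.649 to 187), the cyclin gene Ccng2 at 2.41 (33 against 5) and the mitotic kinesin gene Kif20a at 2.19 (24 against 4). The lowest were the spindle assembly factor Tpx2 at 0.406 (10 against 9), the checkpoint kinase Ttk at 0.512 (14 against 10) and Ube2c, a ubiquitin-conjugating enzyme of the anaphase-promoting complex, at 0.518 (17 against 12). The 17 chromosomal passenger, spindle and cytokinesis genes, which are also mitotic, had a summed fold of 0.963 (0.789 to 1.18) and 10 of them had a fold under 1, so they lay nearer to all promoters than the 12 mitosis genes did; that difference was not tested. The ubiquitin ligase group, which also holds Ube2c, Fbxo5, Cks1b and Cks2, stood at 1.06. The checkpoint group, which also holds Cdt1, Gmnn and Cdc45, stood at 1.05. Cyclins and kinases of other steps stood at 0.931 and antiproliferative genes at 0.918. The group of the MuvB complex, Myb and other E2Fs, which also holds Foxm1, Tfdp1 and Tfdp2, stood at 0.889. Each of these intervals included 1.

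The depth sets how firmly any of this can be read. The intervals spanned a median of 6.51 times from lower to upper bound. A 2-fold higher ratio lay within the interval of 27 of the 39 members with reads, and a ratio of 0.5 within that of 28. Each of these ratios could thus not be excluded at most single promoters. A 4-fold higher ratio lay within the interval of 9. The scaling also matters for direction: with the ratio of all promoters, 17 members had a fold over 1 and 22 under 1, and with the scaling factor of the deposited log2 enrichment 24 were over (61.5%, against 58.5% of all windows with reads) and 15 under. This factor raises every fold alike, so folds just under 1 cross by construction, the 7 that did being Ccnd1, Ccna1, Cdc25a, Cdc6, Aurka, Cdkn1a and Rbl2. The same factor put the interval of Ccnb1 at 0.212 to 1.03, which includes 1. It put those of E2f2 (1.04 to 37.5) and Ccnb2 (1.03 to 11.5) above 1. These are 2 of the 39 members with reads, against 3.95% of all windows with reads. By this factor the share of members above 1 was higher than that of all windows, but it rests on 2 genes. The members with an interval below 1 became 0, against 2.13% of all windows with reads.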

How the data were processed

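ChIP and input reads of TN cells were analysed. The authors deposited whole-number read counts per promoter window in 1 ST18 column, which may hold either or both ChIP libraries, and 1 input column (438960 and 160443 reads). The log2 enrichment deposited by the authors was matched within 1e-06 in all windows by scaling ST18 counts by 0.406 and adding a pseudocount of 16 to both, which draws it towards 0. The submitters' processing notes name TopHat2, HTSeq, edgeR, Bowtie, MACS2 and mm9 without roles; aligner settings and duplicate removal were not given in any source used here. A molecule label of the input names HA ChIP, against its title. The deposited peak list has no gene names and was not used.

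Folds used the ratio of all promoters (2.74), exact Clopper-Pearson 95% intervals and, between classes or genes, exact conditional intervals (SciPy 1.17.1). The exact binomial test, with Benjamini-Hochberg adjustment, ran on all windows. It was also run on simulated counts with counting error only. Those lack the wider spread of all windows (dispersion 1.33), so they do not show how the test behaves on these reads. PCR reads lack molecular identifiers, so intervals cover counting error only. Fits by ChIP replicate, planned at first, could not be made. Members, classes and lists were chosen with earlier results of these data known. Named in full were the 3 highest and 3 lowest members of each class by fold and any whose interval excludes 1, and of other pathway genes the 5 highest and 5 lowest; promoters were printed for the highest and lowest member of each class, except Ccnd2. Alternatives changed the scaling, pseudocount, threshold, input filter, spread or class members.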

Additional observations from a re-analysis of the deposited data

How the results depend on the processing

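No member was called by the exact test under either of the other scalings. None was called with only windows of more than 5 input reads, a filter that takes out E2f2, Cdkn2a and Ccnb2. None was called with a spread widened by the dispersion of all windows (1.33). That widening can only raise p-values, so it could not add a call. With the scaling factor of the deposited log2 enrichment, the members with an interval above 1 became 2 (E2f2 and Ccnb2) and those below 1 became 0, against 3.95% and 2.13% of all windows with reads. With only windows of more than 5 input reads the members below 1 also became 0, against 2.77% of these windows, as the interval of Ccnb1 became 0.212 to 1.03. A pseudocount of 1 in place of 16 put 8 members at or above a log2 enrichment of 0.58 and 4 at or below −0.58, against 24.1% and 13.1% of all windows. A pseudocount of 8 put 3 and 1 there, against 6.98% and 2.60%. These changes follow from how the settings were built. The 3 class ratios stayed within their exact intervals under each alternative run, but CDK inhibitors over cyclins crossed 1, at 0.951 without Ccnb1 and 0.996 by the class medians, in which Cdkn2d, a window with no reads, counts as 0 (1.01 with reads only). With the widened spread, mitosis over the earlier phases had an interval of 0.512 to 1.04. The settings without Ccnb1 and the widened spread for class ratios were chosen after seeing the data. Fits without a ChIP replicate were not run, since the table has 1 ST18 column. No paired analysis was possible because the ST18 column has no replicate label and only ChIP data were analysed here.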
